A study of Mus musculus with 2 samples.

Results

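Metal ion transporters are membrane proteins that carry zinc, iron, copper, manganese and magnesium across cell and organelle membranes. The genes described here are the rows of the count tables whose symbols belong to the solute carrier families Slc11, Slc30, Slc31, Slc39, Slc40 and Slc41. This choice by symbol used no measured value, though it was made with earlier results of these data known. It gave 32 of 32531 gene rows, with 2 genes of family 11, 10 of family 30, 2 of family 31, 14 of family 39, 1 of family 40 and 3 of family 41. Their messages were measured in ribosome-bound RNA of the adult mouse cerebral cortex. The mice carried the Gdnf-EGFP/Rpl10a transgene of line ES2243, in which a ribosomal protein with a green fluorescent tag is expressed under regulatory sequences of Gdnf, the gene of a neurotrophic factor. Tagged polysomes were pulled from cortex homogenate with antibodies against the tag, a method called translating ribosome affinity purification (TRAP), and the bound RNA was sequenced.

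There was a single group of 2 immunopurified libraries, IP2 and IP1, both from this line and both without treatment. The series names pericytes, the contractile cells that wrap capillaries, as the profiled cells. The labels give no age beyond adult and do not say whether the libraries came from separate animals or from a pool, so the spread between them may be technical. Unpurified cortex was not analysed here, and the values below are therefore levels in the purified RNA, not enrichments over the tissue. IP2 held 72732502 and IP1 65200231 reads counted in genes. Levels are given in counts per 1000000 reads counted in genes (CPM). No exon length was at hand, so a CPM compares 1 gene between libraries and does not order the levels of different genes.

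Markers fixed for the profiled and other cells were read in the same libraries. All 8 pericyte markers and all 8 pan-mural markers (genes shared by pericytes and vascular smooth muscle) reached 10 CPM in both libraries. Of 6 arterial smooth muscle markers 4 did, and the 6 summed to 591 CPM in IP2 and 655 CPM in IP1. Of 8 endothelial markers 1 did, and the barrier gene Cldn5, at 0 counts in IP2, had a mean of 0.038 CPM. Of 8 microglial and 5 perivascular macrophage markers 0 did. All 7 pan-neuronal, 8 oligodendrocyte, 6 oligodendrocyte precursor and 6 fibroblast markers and 7 of 8 astrocyte markers also reached it, so the counts of a transporter cannot be credited to pericytes alone. In a homogenate, fewer cells of a type and less RNA per cell cannot be told apart.

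Zinc crosses membranes through a pair of families that work in opposite directions. ZIP proteins (Slc39) bring it into the cytosol from outside or from organelles, and ZnT proteins (Slc30) move it out of the cytosol into vesicles or out of the cell. Ferrous iron enters the cytosol through DMT1 (Slc11a2) and leaves the cell through ferroportin (Slc40a1), copper enters through CTR1 (Slc31a1), and Slc41 proteins carry magnesium. In the brain, zinc is packed into synaptic vesicles of some glutamatergic neurons, and iron must pass the capillary wall to reach neurons and glia.

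A zinc-sensing transcription factor, MTF1, turns on Slc30a1 and metallothionein genes through short metal response elements. Its gene Mtf1 was at 98.5 CPM in IP2 and 99.9 CPM in IP1. The core of that element was searched as TGCACNC and TGCGCNC on both strands in windows from 250 bases before to 50 bases after the start that the RefSeq promoter table gives (build GRCm38.p6, the mm10 assembly). For Slc30a1 and Slc30a2 that start lies inside the annotated gene span. Of all 32851 windows in that table, 25.7% held 1 or more matches and 7.11% held 2 or more. Windows were at hand for 26 of the 32 transporter genes, some with more than 1 start, which made 31 windows. Of these, 16 held 1 or more matches (51.6%). The share over all windows was not matched for base composition, and the core TGCGCNC holds a CG pair. By gene, taking the start with the most matches, 6 of 9 zinc exporters and 5 of 11 zinc importers had 1 or more. No such share by gene was computed over all genes. The 4 genes with 2 or more were all zinc exporter family members, while 0 of the 11 importers had 2. The same search found 4 matches in the window of Mt2, 3 in that of Mt1 and 1 in that of Mt3. A match of letters does not show that a factor binds there. Those 4 windows are shown since the matches set them apart by letters alone, written 5′ to 3′ along the gene with the matches in capitals. The first run of capitals before Slc30a10 holds 2 matches on opposite strands that overlap.
Slc30a10 (chr1:185454598-185454897, plus strand): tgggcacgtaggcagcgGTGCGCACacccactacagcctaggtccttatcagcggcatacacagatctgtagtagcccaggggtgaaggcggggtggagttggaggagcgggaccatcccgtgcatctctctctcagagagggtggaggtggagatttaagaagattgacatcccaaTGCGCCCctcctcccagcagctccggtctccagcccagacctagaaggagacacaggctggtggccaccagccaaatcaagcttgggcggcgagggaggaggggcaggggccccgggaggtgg
Slc30a4 (chr2:122702614-122702913, minus strand): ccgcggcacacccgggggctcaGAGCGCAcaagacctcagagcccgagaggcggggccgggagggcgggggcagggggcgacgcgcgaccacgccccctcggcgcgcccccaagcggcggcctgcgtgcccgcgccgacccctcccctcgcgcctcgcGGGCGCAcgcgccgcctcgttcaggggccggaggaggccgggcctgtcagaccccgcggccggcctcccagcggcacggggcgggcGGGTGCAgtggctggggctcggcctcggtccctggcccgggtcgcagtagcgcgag
Slc30a1 (chr1:191906531-191906830, plus strand): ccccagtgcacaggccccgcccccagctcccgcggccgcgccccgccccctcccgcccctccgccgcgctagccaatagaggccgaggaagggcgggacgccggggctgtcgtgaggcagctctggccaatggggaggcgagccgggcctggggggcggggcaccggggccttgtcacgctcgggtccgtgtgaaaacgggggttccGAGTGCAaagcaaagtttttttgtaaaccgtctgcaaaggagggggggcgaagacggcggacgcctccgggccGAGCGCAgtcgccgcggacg
Slc30a2 (chr4:134343216-134343515, plus strand): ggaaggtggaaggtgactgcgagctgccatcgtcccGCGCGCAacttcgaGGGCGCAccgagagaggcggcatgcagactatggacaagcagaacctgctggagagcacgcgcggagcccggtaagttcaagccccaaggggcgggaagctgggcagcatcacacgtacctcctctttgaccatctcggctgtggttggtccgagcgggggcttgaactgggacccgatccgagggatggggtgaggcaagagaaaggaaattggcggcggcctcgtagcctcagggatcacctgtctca
Of the genes so shown, Slc30a10 and Slc30a4 had 3 matches each, and Slc30a1 and Slc30a2 had 2 each.

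Most members were detected in both libraries. Of the 32 genes, 17 (53.1%) reached 10 CPM in both libraries, beside 28.3% of all gene rows and 44.4% of the 19381 rows that RefSeq lists as protein-coding. Of the same 32, 25 (78.1%) reached 1 CPM in both, beside 41.3% of all gene rows and 62.2% of the protein-coding rows. The median of the 32 genes was 16.6 CPM in IP2 and 13.6 CPM in IP1. Together they took 0.113% of counted reads in IP2 (exact 95% binomial interval 0.113 to 0.114%) and 0.0959% in IP1 (0.0951 to 0.0966%), where the intervals cover counting error only. Of 305 other Slc genes, 112 (36.7%) reached 10 CPM in both libraries, and of the 47 mitochondrial carriers of family 25 among them, 28 (59.6%) did. At 1 CPM in both libraries these carriers numbered 39 (83.0%).

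**Figure D1:**
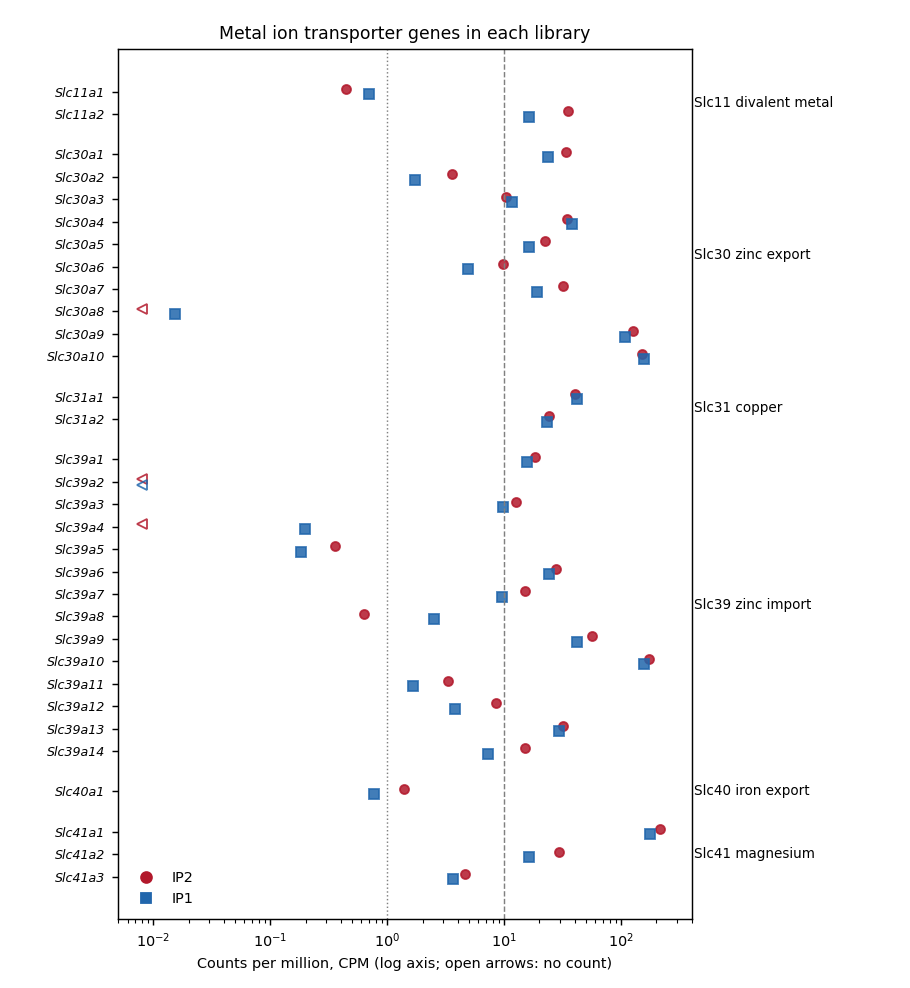
CPM (log axis) of each of the 32 metal ion transporter genes in IP2 (circles) and IP1 (squares), grouped by family; open arrows at the left edge stand for no count, and the lines mark 1 and 10 CPM. Slc41a1, Slc39a10, Slc30a10 and Slc30a9 lie above 100 CPM in both libraries, and Slc39a2 has no count in either.

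Among the zinc exporter family, 7 of 10 genes reached 10 CPM in both libraries. Slc30a10 (chromosome 1, 185454848 to 185468762, mm10), whose product exports manganese rather than zinc, was at 151 CPM in IP2 and 155 CPM in IP1, from 10995 and 10134 reads. The libraries were closer for this gene than their counting error (log2 ratio of IP2 over IP1 0.01, 95% counting interval -0.03 to 0.05). Slc30a9 (chromosome 5, 67306955 to 67356142), linked to zinc export from mitochondria, had 126 CPM in IP2 and 107 CPM in IP1. Slc30a1 (chromosome 1, 191906697 to 191913248), the zinc exporter of the plasma membrane, was at 33.9 CPM in IP2 and 23.6 CPM in IP1. Both genes were somewhat higher in IP2.

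The exporters of the secretory pathway and of vesicles form another group. Slc30a4, an exporter into endosomal vesicles, was at 34.1 CPM in IP2 and 37.7 CPM in IP1. Slc30a7, a Golgi transporter, was at 32.1 CPM in IP2 and 19.1 CPM in IP1. Slc30a5 was at 22.1 CPM in IP2 and 16.4 CPM in IP1, and Slc30a6, its partner in a heterodimer, at 9.80 CPM in IP2 and 4.89 CPM in IP1. The 3 secretory pathway genes Slc30a5, Slc30a6 and Slc30a7 were thus higher in IP2, while Slc30a4 was not.

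The other exporters are known from specialised cells. Slc30a3, which fills synaptic vesicles with zinc, was at 10.3 CPM in IP2 and 11.5 CPM in IP1, a difference within counting error (log2 ratio -0.11, 95% counting interval -0.26 to 0.04). The excitatory neuron markers, the cells known for this gene, summed to 1313 CPM in IP2 and 1461 CPM in IP1 over 5 genes, all of them at 10 CPM in both, and their part in the level of Slc30a3 was not tested. Slc30a2, a vesicular transporter known from secretory epithelium, was at 3.59 CPM in IP2 and 1.73 CPM in IP1. Slc30a8, the zinc transporter of insulin granules in pancreatic islets, had 0 reads in IP2 and 1 in IP1, where 3 counts, the most that a count of 0 allows, would be 0.041 CPM in IP2.

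In the zinc importer family, 5 of 14 genes reached 10 CPM in both libraries. Slc39a10 (chromosome 1, 46807544 to 46925776) was at 172 CPM in IP2 and 157 CPM in IP1. Slc39a6, which pairs with Slc39a10 at the plasma membrane, was at 27.8 CPM in IP2 and 24.0 CPM in IP1. Slc39a9, a Golgi and surface importer, was at 56.7 CPM in IP2 and 42.1 CPM in IP1. Slc39a13, a transporter of intracellular vesicles whose loss causes a connective tissue disorder, was at 31.7 CPM in IP2 and 29.5 CPM in IP1, and Slc39a1, a widely expressed surface importer, at 18.2 CPM in IP2 and 15.7 CPM in IP1. All 5 differed by less than 1.5-fold between the libraries.

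A further 3 importers lay across the line of 10 CPM, above it in IP2 and below it in IP1. Slc39a14 (chromosome 14, 70303467 to 70351452), which carries manganese, iron and zinc, was at 15.0 CPM in IP2 and 7.27 CPM in IP1. Slc39a7, which releases zinc from the endoplasmic reticulum, was at 15.03 CPM in IP2 and 9.52 CPM in IP1, and Slc39a3, another surface importer, at 12.7 CPM in IP2 and 9.68 CPM in IP1. Slc39a12, known in the brain from astrocytes, was at 8.41 CPM in IP2 and 3.77 CPM in IP1, and Slc39a11 at 3.31 CPM in IP2 and 1.64 CPM in IP1. Each of these 5 genes was higher in IP2.

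The remaining importers had few reads. Slc39a8 (chromosome 3, 135816882 to 135888572), the closest relative of Slc39a14 and likewise a manganese and zinc importer, was at 0.63 CPM in IP2 and 2.52 CPM in IP1, from 46 and 164 reads. Slc39a5 had 26 reads in IP2 and 12 in IP1, or 0.36 and 0.18 CPM. Slc39a4, the intestinal zinc importer lost in acrodermatitis enteropathica, had 0 reads in IP2 and 13 in IP1. Its CPM was 4.83-fold lower in IP2 when the 0 is set to 3 counts and the 13 reads are taken as exact. The 95% counting interval of its log2 ratio, which covers both counts, reached up to -1.71. Slc39a2 had no read in either library, which allows up to 0.041 CPM in IP2 and 0.046 CPM in IP1.

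The iron transporters differed in their read counts, which depend on gene length as well. Slc11a2 (chromosome 15, 100387898 to 100424209), the ferrous iron importer DMT1, was at 35.2 CPM in IP2 and 16.2 CPM in IP1. Slc40a1 (chromosome 1, 45908070 to 45926532), which encodes ferroportin, the iron exporter of the cell, was at 1.37 CPM in IP2 and 0.77 CPM in IP1, from 100 and 50 reads. Slc11a1, the metal transporter of macrophage phagosomes, was at 0.44 CPM in IP2 and 0.69 CPM in IP1. Both Slc40a1 and Slc11a1 thus had few reads, beside summed levels of 31.7 CPM in IP2 and 27.7 CPM in IP1 for 8 microglial markers and of 4.77 CPM in IP2 and 3.37 CPM in IP1 for 5 perivascular macrophage markers. The part of these cells in the 2 genes was not tested.

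The copper transporters differed little between the libraries. Slc31a1 (chromosome 4, 62360583 to 62391769), the copper importer CTR1, was at 40.4 CPM in IP2 and 41.6 CPM in IP1. Slc31a2, its endosomal relative, was at 23.95 CPM in IP2 and 23.2 CPM in IP1. The 95% counting intervals of their log2 ratios, -0.06 to 0.09 and -0.003 to 0.20, both held 0.

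Of the magnesium transporters, Slc41a1 (chromosome 1, 131828012 to 131848863), a plasma membrane magnesium carrier, was at 214 CPM in IP2 and 176 CPM in IP1. Its 15529 reads in IP2 and 11472 in IP1 were the most of the 32 genes. Slc41a2, a relative that also carries magnesium, was at 29.3 CPM in IP2 and 16.2 CPM in IP1. Slc41a3, linked to magnesium export from mitochondria, was at 4.63 CPM in IP2 and 3.62 CPM in IP1. The log2 ratio of IP2 over IP1 was above 0 for all 3, at 0.33, 0.91 and 0.41.

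Set side by side, the transporter genes leaned towards IP2. For each gene with 10 or more reads in total, the reads of IP2 were compared with those of IP1 by a two-sided exact binomial test with Benjamini-Hochberg adjustment over 17306 genes. This test compares these 2 libraries, not conditions, and holds counting error only. An adjusted p under 0.05 was reached by 24 of 30 members, beside 75.5% of all genes tested, and so separates little. With a ratio of at least 2 as well, 6 of 30 were higher in IP2, beside 7.21% of all genes, and 2 of 30 were higher in IP1, beside 10.2%. With a ratio of at least 1.5, 10 of 30 were higher in IP2, beside 14.0%, and 2 of 30 higher in IP1, beside 15.3%. Of the 30 ratios, 25 were above 0, beside 8582 of 17306 over all genes. The median log2 ratio was 0.43, against 0.00 over all 17306 genes.

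**Figure D2:**
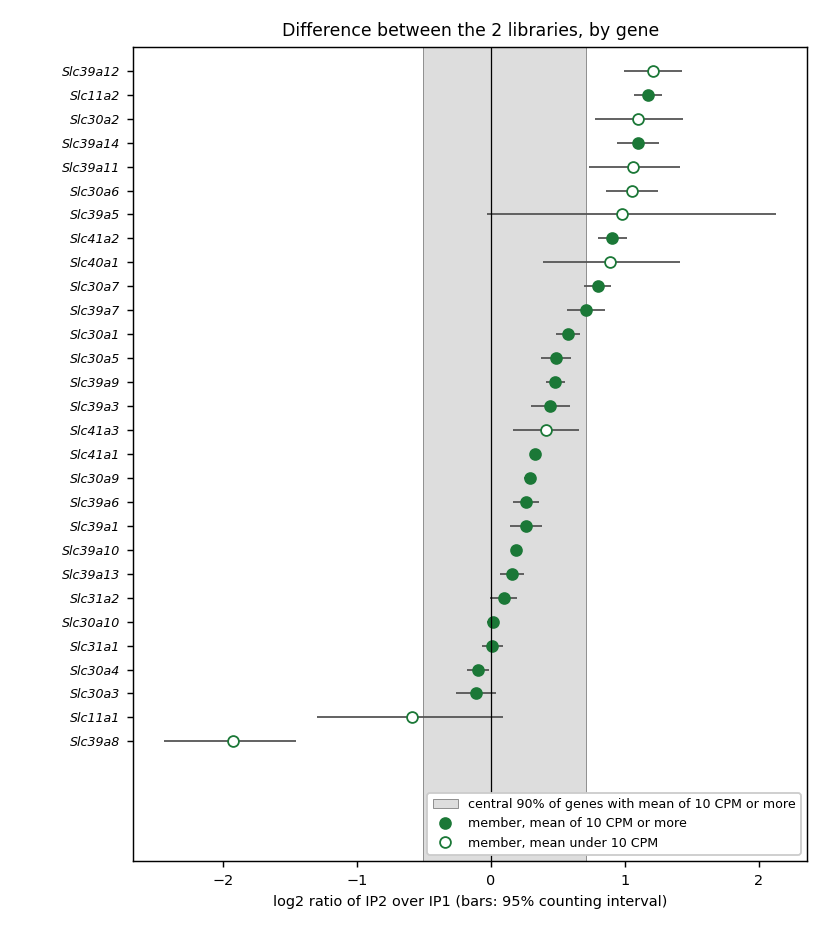
Log2 ratio of IP2 over IP1 for the 29 transporter genes with 10 or more reads in total and reads in both libraries; bars are 95% counting intervals and the grey band holds the central 90% of genes whose mean reached 10 CPM (-0.51 to 0.71). Slc39a12 and Slc11a2 lie at the top, and Slc39a8 lies far to the left.

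The 6 genes at least 2-fold higher in IP2 were Slc39a12 (log2 ratio 1.21), Slc11a2 (1.17), Slc30a2 (1.10), Slc39a14 (1.10), Slc39a11 (1.06) and Slc30a6 (1.05). They belong to the importer, the iron and the exporter families, so they share no direction of transport. Slc11a2 stood on 2560 reads in IP2 and 1055 in IP1, with a 95% counting interval of 1.07 to 1.28. Slc39a8 (-1.93, interval -2.44 to -1.46) and Slc39a4 were the 2 genes higher in IP1. Slc39a14 and Slc39a8, close relatives with overlapping substrates, thus lay on opposite sides. A coefficient of variation of 0.2 between libraries was then assumed, below the 0.220 estimated over 13446 genes. With it, edgeR's exact test called 2 of the 6, Slc39a12 (adjusted p = 0.0437) and Slc11a2 (adjusted p = 0.0445). Both values lie close to the threshold of 0.05, and the test was not run at 0.220. At 0.2 the test also called both genes higher in IP1. So 2 of 30 members were called in each direction, beside 4.59% of all genes higher in IP2 and 7.09% higher in IP1, and under this assumption the calls no longer leaned towards IP2.

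A lean towards IP2 was also seen outside the metal families. Among genes whose mean reached 10 CPM, the median log2 ratio was 0.31 over 20 transporter genes, 0.25 over 118 other Slc genes and 0.03 over all 9656 genes. Of the 20, Slc39a3, Slc39a7 and Slc39a14 passed that mean with under 10 CPM in IP1. Over genes with 10 or more reads, the other 235 Slc genes had a median of 0.16, and 42 mitochondrial carriers of family 25 had -0.13, on the other side of 0. No test of the difference between these groups was made.

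**Figure D3:**
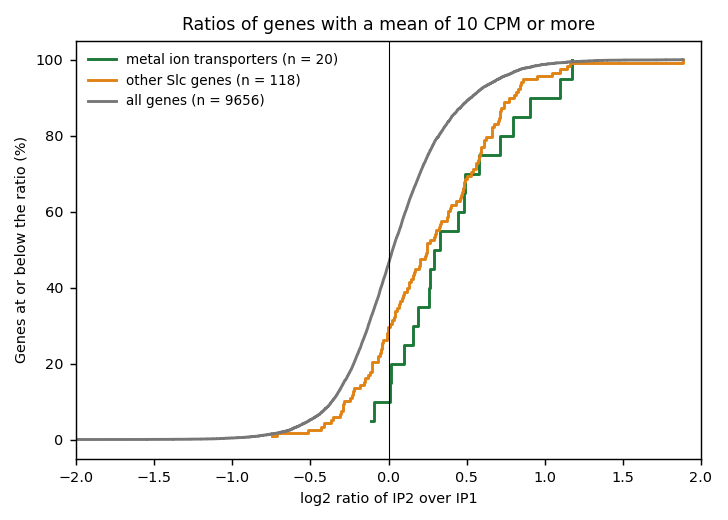
Cumulative share of genes (percent) by log2 ratio of IP2 over IP1, for metal ion transporters, other Slc genes and all genes whose mean reached 10 CPM. The curves of the 20 metal ion transporters and of the 118 other Slc genes run to the right of that of all 9656 genes.

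Marker lists of several cell types leaned the same way, while others did not. Of 8 astrocyte markers 7 had a log2 ratio above 0 (median 0.74), with a summed level of 2941 CPM in IP2 and 1872 CPM in IP1. Of 8 pericyte markers 6 did (median 0.62), with 2063 CPM in IP2 and 1505 CPM in IP1, and of 6 fibroblast markers 6 did (median 0.53), with 4004 CPM in IP2 and 2865 CPM in IP1. The 7 pan-neuronal markers summed to 13175 CPM in IP2 and 15054 CPM in IP1 (median log2 ratio 0.10), and the 8 endothelial markers to 60.0 CPM in IP2 and 63.5 CPM in IP1. Of 7 endothelial markers with 10 or more reads, 5 had a log2 ratio above 0 (median 0.74), while Emcn, which held most of the list's reads, was at 33.3 CPM in IP2 and 42.1 CPM in IP1. Of 8 pan-mural markers, which pericytes share, 4 had a log2 ratio above 0 (median 0.06). They summed to 5314 CPM in IP2 and 6322 CPM in IP1. For arterial smooth muscle 5 of 6 markers were above 0 (median 0.10), for excitatory neurons 2 of 5 and for inhibitory neurons 2 of 6 (both medians -0.07). For oligodendrocytes 6 of 8 were above 0 (median 0.37), for their precursors 4 of 6 (0.32) and for microglia 5 of 8 (0.11). Of 5 perivascular macrophage markers, with few reads, 4 were above 0 (median 1.01). Of 4 ependymal and choroid plexus markers with 10 or more reads, 3 were (median 0.50). The part of these cells in the transporter ratios was not tested.

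Genes that work beside the transporters were read from 5 lists. Of 27 iron handling genes, 18 reached 10 CPM in both libraries. Fth1, the ferritin heavy chain that stores iron, was at 352 CPM in IP2 and 377 CPM in IP1, Pcbp2, an RNA-binding protein that also delivers iron, at 141 CPM in IP2 and 157 CPM in IP1, and Cp, the ferroxidase ceruloplasmin, at 120 CPM in IP2 and 64.6 CPM in IP1. Hamp, the gene of hepcidin, which acts on ferroportin, had no read. At a ratio of at least 2, 2 of 26 were higher in IP2 (7.69%, beside 7.21% of all genes). In IP1 0 were higher, beside 10.2% of all genes. The 2 were Trf, the transferrin gene, at 87.3 CPM in IP2 and 38.9 CPM in IP1, and Steap1, at 0.41 CPM in IP2 and 0.12 CPM in IP1. The median log2 ratio of the list was -0.04, beside 0.43 for the transporters, and 12 of 26 genes were above 0.

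Of 7 zinc buffering and sensing genes, 4 reached 10 CPM in both libraries. Besides Mtf1, these were the metallothionein genes Mt2 (81.3 CPM in IP2, 91.2 CPM in IP1) and Mt1 (62.3 CPM in IP2, 70.3 CPM in IP1), whose products bind zinc and copper, and Tmem163, a vesicular zinc exporter (56.1 CPM in IP2, 48.7 CPM in IP1). The metallothionein gene Mt4 had no read. Mt3, named here after its values were seen since it is known as the brain metallothionein, was at 0.89 CPM in IP2 and 0.49 CPM in IP1. Of the 5 genes with 10 or more reads, 0 were called at a ratio of at least 2. Over all genes, 7.21% were called higher in IP2 and 10.2% higher in IP1.

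Of 11 copper handling genes, 7 reached 10 CPM in both libraries. Sod1, a copper and zinc superoxide dismutase, was at 353 CPM in IP2 and 372 CPM in IP1, its secreted relative Sod3 at 127 CPM in IP2 and 69.4 CPM in IP1, and the copper pump gene Atp7a at 77.2 CPM in IP2 and 49.6 CPM in IP1. Sco1, a copper chaperone of the respiratory chain, was at 1.07 CPM in IP2 and 2.87 CPM in IP1. It was the 1 of 10 genes at least 2-fold higher in IP1, beside 10.2% of all genes. In IP2 0 were higher, beside 7.21% of all genes. Sco2 had no read, and its span overlaps the genes Ncaph2 and Tymp. The median log2 ratio of the list was -0.14, with 2 of 10 genes above 0, beside 8582 of 17306 over all genes.

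**Figure D4:**
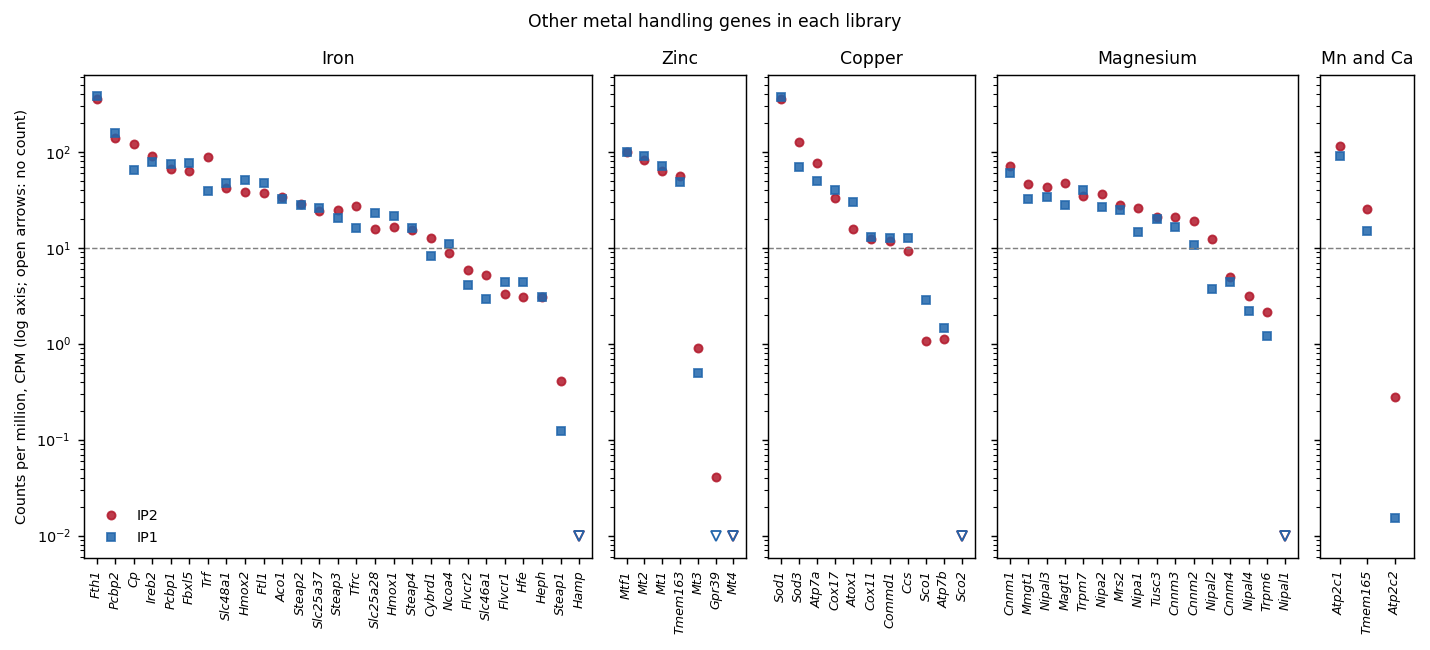
CPM (log axis) of other metal handling genes in IP2 (circles) and IP1 (squares), in 5 lists ordered by mean level within each list; open arrows stand for no count and the dashed line marks 10 CPM. In the magnesium list 14 of 15 genes with 10 or more reads are higher in IP2 after scaling, while in the copper list 2 of 10 are. Over all genes with 10 or more reads, 8582 of 17306 are.

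Of 16 magnesium transport genes outside family 41, 11 reached 10 CPM in both libraries. Cnnm1, of a family of membrane proteins linked to magnesium export, was at 70.8 CPM in IP2 and 59.8 CPM in IP1, Mmgt1 at 46.2 CPM in IP2 and 32.2 CPM in IP1, and Nipal3 at 42.9 CPM in IP2 and 34.2 CPM in IP1. Nipal1 had no read. Nipal2, at 12.3 CPM in IP2 and 3.70 CPM in IP1, was the 1 of 15 genes at least 2-fold higher in IP2. That is 6.67%, beside 7.21% of all genes. In IP1 0 were higher, beside 10.2% of all genes. The median log2 ratio of this list was 0.50 and 14 of 15 genes were above 0, on the same side as all 3 Slc41 genes. Over all genes, 8582 of 17306 were above 0.

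The short list of manganese and calcium transport in the secretory pathway held 3 genes, 2 of them at 10 CPM in both libraries. Atp2c1, a Golgi pump for both ions, was at 113 CPM in IP2 and 91.1 CPM in IP1, and Tmem165, a Golgi protein needed for manganese supply, at 25.3 CPM in IP2 and 14.8 CPM in IP1. Atp2c2, a relative of Atp2c1, had 20 reads in IP2 and 1 in IP1 (log2 ratio 3.67, 95% counting interval 1.57 to 9.59) and was called higher in IP2. Atp2c2 was the 1 of 3 genes at least 2-fold higher in IP2 (33.3%), beside 7.21% of all genes. In IP1 0 were higher, beside 10.2% of all genes. All 3 had log2 ratios above 0, beside 8582 of 17306 over all genes.

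Reads that matched several genes were left unassigned, which touches members that overlap a neighbour. Of the 32 spans, 22 overlap no other gene of the RefSeq table. Among the other 10 are Slc30a10, Slc30a1, Slc39a9, Slc31a1, Slc11a2, Slc39a8 and Slc39a11, the last of which spans Sstr2 and part of Cog1. Over the members free of overlap, the median log2 ratio of 20 genes was 0.43, as for all 30. Of the 22, however, 9 (40.9%) reached 10 CPM in both libraries, against 53.1% of all 32. That share lay below the 44.4% of all protein-coding rows, which were not restricted by overlap.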

How the data were processed

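Ribosome-bound RNA of the adult mouse cortex was sequenced in 2 libraries of 1 group. Per the submitters' processing notes, the authors aligned reads with STAR version 2.0.0e to mm10 and counted them with HTSeq. Which annotation and strandedness they used is not given in the sources used here. Reads of a gene and of an antisense partner can therefore not be told apart. The deposited files hold raw counts per gene symbol. Summary lines and a row named unknown (1 read in IP1) were left out. Reads in genes were 57.7% of listed reads in IP2 and 58.1% in IP1, and reads aligned to several places, 31.5% in IP2 and 31.2% in IP1, were not assigned.

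CPM were scaled by the total of gene counts. Ratios used TMM factors (edgeR 4.0.16) and 0.5 added counts. An edgeR quasi-likelihood test could not be fitted, since both libraries belong to 1 group, and exact binomial tests were run instead (scipy 1.17.1). Their check on simulated counts required right answers under counting error only. Unchanged genes were also simulated with a coefficient of variation of 0.2, and some were called at a ratio of at least 2. These libraries had an estimated coefficient of variation of 0.220, so the binomial calls do not allow for the spread between them. The p-values do not measure spread between animals. A count of 0 allows 3 counts. Reads carry no molecular identifiers, so intervals and such limits cover counting error only. DESeq2 1.42.0 gave alternative size factors. Levels per kilobase were planned but not computed, since no exon length was at hand, and protein stretches planned for display were not used here.

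All 32 members are named, with the 3 highest, up to 3 uncounted and all 2-fold genes of each pathway list. The members and lists were chosen with earlier results of these data known. Flvcr1 and Flvcr2 were matched by their older symbols. Computation used R 4.3.3 and Python 3.11.15.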

Additional observations from a re-analysis of the deposited data

How the results depend on the processing

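The counts of members at 10 CPM and at 1 CPM, the median CPM and the median log2 ratio changed little under other scalings. Without 1 library, the count at 10 CPM ran from 17 to 20, that at 1 CPM was 26 in each case, and the median level ran from 13.6 to 16.6 CPM. The median log2 ratio ran from 0.37, with scaling by total counts, to 0.44, with a mean of at least 1 CPM. Restricting the median level to members with 10 or more reads gave 18.1 CPM, by construction. The edgeR exact test with a coefficient of variation of 0.2 called 2 members higher in IP2 in place of 6 and the same number higher in IP1, beside 4.59% and 7.09% of all genes, so that the calls no longer leaned towards IP2. With a mean of at least 1 CPM required, 1 member in place of 2 was higher in IP1 at either ratio, since Slc39a4 fell out. Restricting to the 22 members that overlap no other gene, chosen after seeing the data, left 9 at 10 CPM and 1 higher in IP1 at either ratio. Those 9 were 40.9%, below the 44.4% of all protein-coding rows. Without 1 library, the pathway lists had 19 iron, 4 zinc, 7 to 8 copper, 11 to 12 magnesium and 2 secretory pathway genes at 10 CPM. Levels per kilobase under either length were not run. No paired analysis was possible because the series has a single group. With 2 libraries, a ratio of 1 gene has no replicate check.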
